A study of Mus musculus with 14 samples.

Results

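A set of 10 genes of the Wnt pathway was followed across the epicardium and subepicardium of the mouse heart: the ligands Wnt5a, Wnt5b, Wnt4, Wnt2b and Wnt11, the R-spondins Rspo1 and Rspo3, the receptors Ror1 and Ror2, and the antagonist Sfrp1. They were picked by name, with earlier results of these data known, so their counts beside those of all genes describe this set only. All 10 were listed among the 15894 genes of the table, and all 10 passed the filter on low values in each of the 5 comparisons. RNA came from the outer layer dissected from the ventral or the dorsal side of untreated E16.5 hearts, as pools of 2 hearts, and was read as single reads of 60 bases. The groups were female ventral (3 libraries, numbers 1 to 3), female dorsal (3, the same numbers), male ventral (4, numbers 4 to 7) and male dorsal (3, numbers 4 to 6). A further male library, numbered 7, is titled dorsal but has a ventral tissue entry, and it was kept out of the groups. The sample labels give every library the genotype Tbx18Cre, Cre recombinase driven by the epicardial gene Tbx18, with no other allele named, whereas the study describes the hearts as wild type. The study compared the sides to ask whether they offer coronary lymphatic vessels a different signaling environment.

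Wnt proteins are secreted, lipid-modified ligands that bind Frizzled receptors. With Lrp5 or Lrp6 they keep β-catenin from being degraded, and with Ror1, Ror2, Ryk or Ptk7 they act on cell polarity and movement without β-catenin. R-spondins bind Lgr receptors and the ubiquitin ligases Znrf3 and Rnf43, which leaves more Frizzled on the surface and makes cells more sensitive to Wnt, while Sfrp1 is a secreted protein with a Frizzled-like domain that binds Wnts outside the cell. The epicardium, the mesothelium covering the heart, is a known source of Wnt and R-spondin signals during heart growth.

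Of the 10 genes, 4 were higher ventrally in female hearts, namely Wnt5a, Wnt4, Wnt2b and Rspo1, and none was higher dorsally. The test was limma on log2(normalized CPM + 1), with a Benjamini-Hochberg adjusted p under 0.05 over all genes. On that scale, with 1 added to each value, the 4 changes were 2.79-fold to 3.84-fold. The added 1 understates the changes of the low genes Wnt2b and Wnt4. Female means of Wnt2b were 6.507 normalized CPM ventrally and 0.996 dorsally, and those of Wnt4 were 6.784 and 1.399. In the same test 27.8% of 14411 genes were called and 14.5% of the 14411 were called higher ventrally, so the 4 of 10 stand against a large background. Every female ventral library was above every dorsal one for 3 of the 10 (Wnt5a, Wnt4 and Wnt2b) and for 23.2% of all genes tested. The changes were above 0 for 9 of the 10, and their median log2 change was 0.78, beside 0.01 over all genes. The receptors Ror1 and Ror2 and the antagonist Sfrp1 were not called between the sides in either sex. Between the sexes, Sfrp1 was the gene called among the 10, at 2.02-fold higher in females. In that test 10.9% of 15772 genes were called and 6.54% were called higher in females, so 1 of 10 is near the share over all genes. The values below are the authors' normalized CPM (reads scaled to library size); a difference in these tissue pieces can come from fewer cells of a type or from less RNA per cell, which cannot be told apart.

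**Figure D1:**
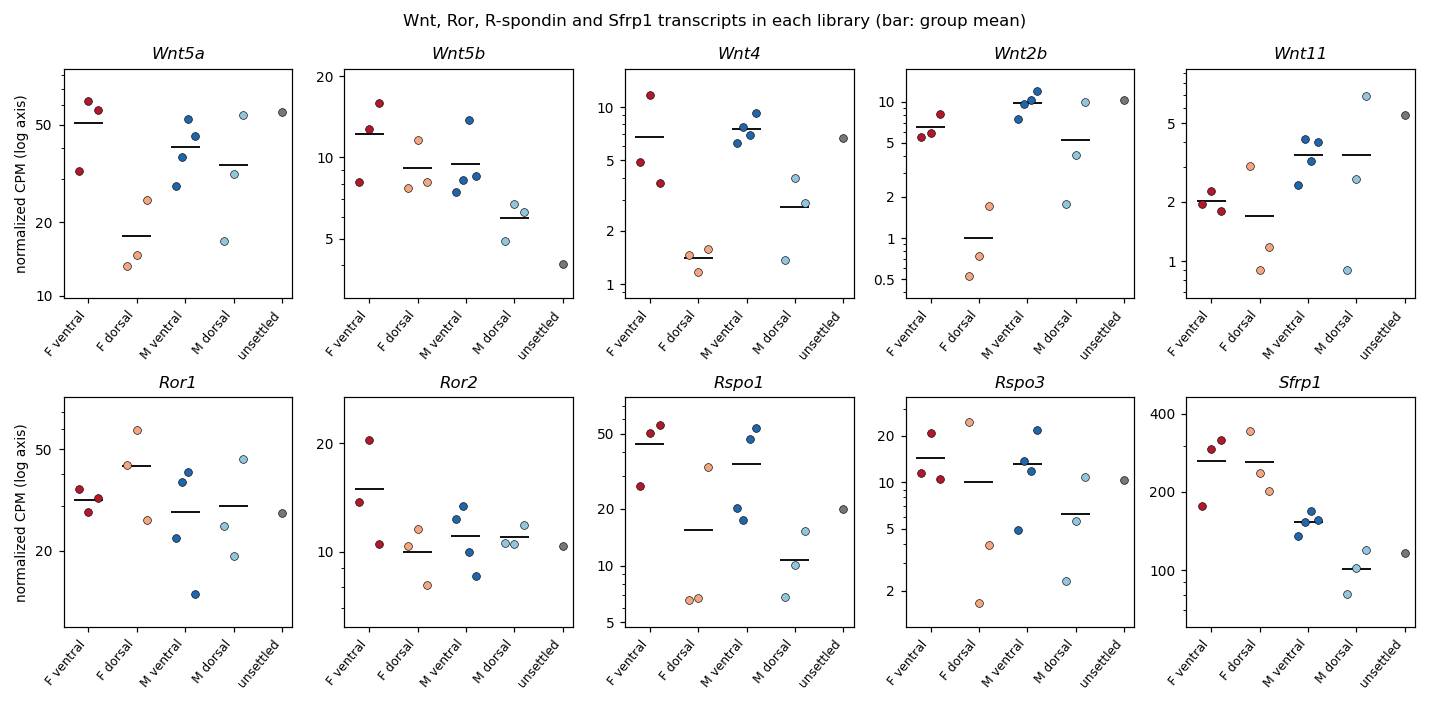
Normalized CPM (log axis) of the 10 genes in each library, by group (F, female; M, male; unsettled, the male library whose labels disagree on its side); each point is a library of 2 pooled hearts and each bar a group mean. Female ventral points of Wnt5a, Wnt4 and Wnt2b stand above all female dorsal points, and female points of Sfrp1 above all male points.

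Reads on the listed genes numbered 13.9 M to 25.2 M per library (median 20.4 M), so even the lowest value here, Wnt2b in a female dorsal library, rests on 11 reads. The 10 epicardium markers, Wt1, Tbx18, Upk3b, Upk1b, Msln, Aldh1a2, Krt19, Lrrn4, Sema3d and Gpm6a, were detected in every library, as the label of the tissue requires. Their summed level was 1875 to 3077 normalized CPM in female ventral, 335 to 682 in female dorsal, 2156 to 6419 in male ventral and 1730 to 4836 in male dorsal libraries. In female hearts 10 of 10 of these markers were called higher ventrally (median log2 change 2.17), as were 5 of 8 fibroblast, 5 of 6 macrophage and 3 of 5 lymphatic markers, while 3 of 6 smooth muscle markers were called higher dorsally and 1 higher ventrally. Ventricular cardiomyocyte markers had 2 of 10 called higher ventrally, and these were the only ones of the 10 with changes above 0 (median log2 change -0.23). Atrial markers had 1 of 5 and erythroid markers 1 of 6 called higher dorsally, and blood endothelium had 0 of 6 called. In male hearts limma called 0 markers of any of these lists, and all 10 epicardium markers had changes above 0 (median 0.53). Of the ventricular markers, 2 of 10 had male changes above 0 (median -0.60). A pair of libraries stood apart: female dorsal replicate 1 had an atrial marker sum of 12483 against 493 to 1995 in the other libraries of settled side, and male ventral replicate 7 an erythroid sum of 57366 against 7425 to 21406.

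Wnt5a, the best known ligand of the Ror receptors, lies on chromosome 14 (ENSMUSG00000021994, GRCm38 chr14:28504750-28527448, plus strand). On the ventral side of female hearts, numbers 1 to 3 had 32.4, 62.6 and 57.2 normalized CPM, against 13.2, 14.6 and 24.6 on the dorsal side. All ventral values were above all dorsal ones. This made a log2 change of 1.48 with a standard error of 0.295 (limma adjusted p = 0.00613). In male hearts the sides overlapped, with ventral libraries 4 to 7 at 28.2, 37.0, 52.7 and 44.9 normalized CPM and dorsal libraries 4 to 6 at 16.7, 31.5 and 54.5. Male dorsal replicate 6 was the highest of the 7 male libraries of settled side. The male log2 change was 0.36 (95% interval -0.43 to 1.14, limma adjusted p = 0.658). The male change was smaller than the female one by 1.12 log2 units, with an interval of -2.22 to -0.02 for the difference, and this passed at an unadjusted p of 0.046 but not over all genes (limma adjusted p = 0.314). Blocking on the replicate number moved the difference to -1.18, which did pass (limma adjusted p = 0.0406). With GC and length trends removed as well it was -1.15 and did not pass (limma adjusted p = 0.0583), and the other 24 of 25 alternatives did not call it. Of the 60-base windows of its exons, 3.08% also occur in the antisense transcript Gm2670, so that reads from these stretches are uncertain.

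Wnt4, a ligand known from kidney and gonad development that can act with or without β-catenin, is on chromosome 4 (ENSMUSG00000036856, chr4:137277489-137299726, plus strand). Female ventral libraries had 4.88, 11.7 and 3.72 normalized CPM and female dorsal libraries 1.45, 1.17 and 1.57. The ventral values were the more spread of the groups, and none reached down to the dorsal ones. In female hearts the log2 change reached 1.56 with a standard error of 0.398 (limma adjusted p = 0.0181), and the adjusted p was 0.0595 without female ventral replicate 2 and 0.0586 without female dorsal replicate 2. Male ventral libraries had 6.27, 7.67, 6.92 and 9.29 normalized CPM, all above the male dorsal values of 1.37, 3.998 and 2.87. The male log2 change of 1.24 (standard error 0.337) had an unadjusted p of 0.00411 in limma and did not pass over all genes (adjusted p = 0.285).

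Wnt2b, a ligand that signals through β-catenin, is on chromosome 3 (ENSMUSG00000027840, chr3:104945272-104961921, minus strand). It had the largest female change of the 10, from 0.531, 0.735 and 1.72 normalized CPM dorsally to 5.50, 5.89 and 8.12 ventrally. The sides did not overlap, and the log2 change came to 1.94 with a standard error of 0.341 (limma adjusted p = 0.00369). Male ventral libraries had 7.49, 9.56, 10.3 and 11.9 normalized CPM and male dorsal libraries 1.77, 4.08 and 9.93. Male dorsal replicate 6 again lay within the ventral range, and the male log2 change of 0.999 did not pass (interval 0.03 to 1.96, limma adjusted p = 0.346).

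Rspo1, the R-spondin with the highest level here, is also on chromosome 4 (ENSMUSG00000028871, chr4:124986430-125009099, plus strand). In female hearts the ventral libraries had 26.6, 50.7 and 56.1 normalized CPM and the dorsal ones 6.58, 6.78 and 33.3. Dorsal replicate 3 stood above ventral replicate 1, so the sides overlapped although the change passed the test (log2 change 1.78 with a standard error of 0.533, limma adjusted p = 0.0337). It did not pass when female ventral replicate 2 or 3 or female dorsal replicate 1 or 2 was left out, with limma adjusted p values from 0.098 to 0.115, and in edgeR's count test on recovered reads (adjusted p = 0.104). In male hearts all of the ventral values, 20.3, 17.5, 47.0 and 54.0, were above the dorsal ones, 6.83, 10.1 and 15.3. The male log2 change was 1.50 (unadjusted p = 0.00493, limma adjusted p = 0.285), and in the fit blocked on replicate number it was 1.24 and passed (limma adjusted p = 0.0369). That was the only 1 of 20 alternatives to call it, and with the block and removal of GC and length trends it did not pass (1.11, limma adjusted p = 0.0624).

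The promoters of Wnt4 and Rspo1 are shown because these genes shared the ventral side as their higher side in all 6 numbered pairs of libraries (given further on) and lie on the same chromosome. The RefSeq-based promoter table (GRCm38.p6) held 7 of the 10 genes; Wnt5a, Rspo3 and Sfrp1 had no entry. Capitals mark GC boxes, GGGCGG on either strand (CCGCCC as printed), and for Wnt4 only the 104 bases outside the annotated gene are printed.
Wnt4, chr4:137277385-137277488, plus strand: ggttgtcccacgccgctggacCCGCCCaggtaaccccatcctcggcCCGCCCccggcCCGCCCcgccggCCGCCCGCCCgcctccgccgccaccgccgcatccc
Rspo1, chr4:124986180-124986429, plus strand: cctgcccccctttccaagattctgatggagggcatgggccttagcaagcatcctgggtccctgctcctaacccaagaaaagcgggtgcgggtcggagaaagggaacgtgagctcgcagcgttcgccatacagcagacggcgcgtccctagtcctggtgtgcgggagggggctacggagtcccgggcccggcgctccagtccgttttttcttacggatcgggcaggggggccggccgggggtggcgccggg
The 250 bases before the Wnt4 start were 85.2% G and C and held 8 GC boxes, some of which overlap, whereas those before Rspo1 were 66.8% G and C and held 0. Wnt2b had 3 GC boxes at 80.8% G and C. Of these windows, 104 bases for Wnt4, 38 for Wnt2b and all 250 for Rspo1 lie outside the annotated gene. The Wnt2b boxes all lie inside it, as do the Wnt4 boxes that are not printed. At least 1 GC box occurs in 32.7% of 32817 promoters of this length. The TCF and LEF core CTTTGA, searched on both strands and found in 13.8% of promoters, occurred in none of these 3. These matches describe the letters in the window and not binding.

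Rspo3, an R-spondin known for its role in coronary vessel growth, is on chromosome 10 (ENSMUSG00000019880, chr10:29452416-29535867, minus strand). Its female ventral values were 11.5, 20.9 and 10.6 normalized CPM and its dorsal ones 24.8, 1.66 and 3.97. The highest of the 6 was a dorsal one, replicate 1, the library with the high atrial marker sum. The female log2 change of 1.07 did not pass with it (interval -0.47 to 2.62, limma adjusted p = 0.274) and was 2.01 without it (limma adjusted p = 0.0113). The part of atrial tissue in this value was not tested. In male hearts Rspo3 had 4.94, 13.8, 11.9 and 21.7 ventrally and 2.30, 5.60 and 10.8 dorsally, which overlapped (log2 change 0.99, limma adjusted p = 0.41). Of its 60-base windows, 11.23% also occur in the antisense transcript Gm48159.

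Wnt5b and Wnt11, ligands that like Wnt5a are known for signalling without β-catenin, were not called between the sides. Wnt5b (ENSMUSG00000030170, chr6:119432531-119544347, minus strand) had 8.11, 12.7 and 15.9 normalized CPM in female ventral and 7.74, 11.6 and 8.11 in female dorsal libraries, which overlapped (log2 change 0.36, limma adjusted p = 0.403). In male hearts its ventral values, 7.44, 8.24, 13.7 and 8.53, were all above its dorsal values, 4.90, 6.75 and 6.28 (log2 change 0.56, limma adjusted p = 0.411). Wnt11 (ENSMUSG00000015957, chr7:98835112-98855195, plus strand), the lowest of the 10 by its median per kilobase over these libraries, ranged from 0.898 to 6.85 normalized CPM over all libraries of settled side. Its highest value was in male dorsal replicate 6 and its lowest in a female dorsal library. The highest female value, 3.025, was in female dorsal replicate 1, the library with the high atrial marker sum. Its log2 change was 0.23 in female and 0.22 in male hearts, and 7.19% of its windows are shared with the overlapping pseudogene Gm8398.

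The receptors Ror1 and Ror2, which bind Wnt5a, were not called between the sides. Ror1 (ENSMUSG00000035305, chr4:100095791-100444765, plus strand) had 34.7, 28.4 and 32.1 normalized CPM in female ventral libraries and 43.2, 59.2 and 26.3 in female dorsal ones, with a log2 change of -0.36 (interval -0.94 to 0.23, limma adjusted p = 0.339). In male hearts it had 22.4, 37.3, 40.7 and 13.5 ventrally and 25.0, 19.01 and 45.8 dorsally. Both male sides spanned a wide and shared range. Ror2 (ENSMUSG00000021464, chr13:53109312-53286124, minus strand) was the steadiest of the 10, from 8.11 to 20.4 normalized CPM, with 13.7, 20.4 and 10.5 in female ventral against 10.4, 11.6 and 8.11 in female dorsal libraries (log2 change 0.49, interval -0.15 to 1.13). Its male log2 change was 0.00 (interval -0.56 to 0.55). These intervals leave room for changes of up to about 1 log2 unit in female Ror2, so equal levels were not shown.

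Sfrp1 (ENSMUSG00000031548, chr8:23411502-23449632, plus strand) was the most abundant of the 10 and the gene called between the sexes. Female libraries had 176, 293 and 317 normalized CPM ventrally and 344, 236 and 201 dorsally, which overlapped (log2 change 0.00, interval -0.56 to 0.56). The highest was dorsal replicate 1, the library with the high atrial marker sum. Ventral values were 0.513 times the dorsal one in pair 1, and 1.24 and 1.57 times in pairs 2 and 3. Male libraries had 135, 153, 168 and 156 ventrally and 81.1, 102 and 119 dorsally, with every ventral value above every dorsal one (log2 change 0.61, unadjusted p = 0.0032, limma adjusted p = 0.285). All 6 female values were above all 7 male values. The share of all genes for which the sexes did not overlap was not counted. The means were 261 ± 66.9 in females (SD, n = 6 libraries) and 131 ± 31.7 in males (n = 7), and the male level was lower with side in the model (log2 change -1.02 with a standard error of 0.174, limma adjusted p = 0.00163). All 24 alternatives run on this comparison called it, with adjusted p between 2.36e-04 and 0.00598. The main fit counts each library as independent, although libraries of one number were taken to be pairs. With the libraries of each number averaged, the log2 change was -1.04 (limma adjusted p = 0.00163). Female and male libraries carry separate runs of numbers, and sex and any difference in how these runs were prepared cannot be told apart. Between the sexes 5 of 10 epicardium, 1 of 8 fibroblast and 1 of 6 macrophage markers were called higher in males and none of the marker lists had a gene called higher in females; their part in the Sfrp1 difference was not tested.

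**Figure D2:**
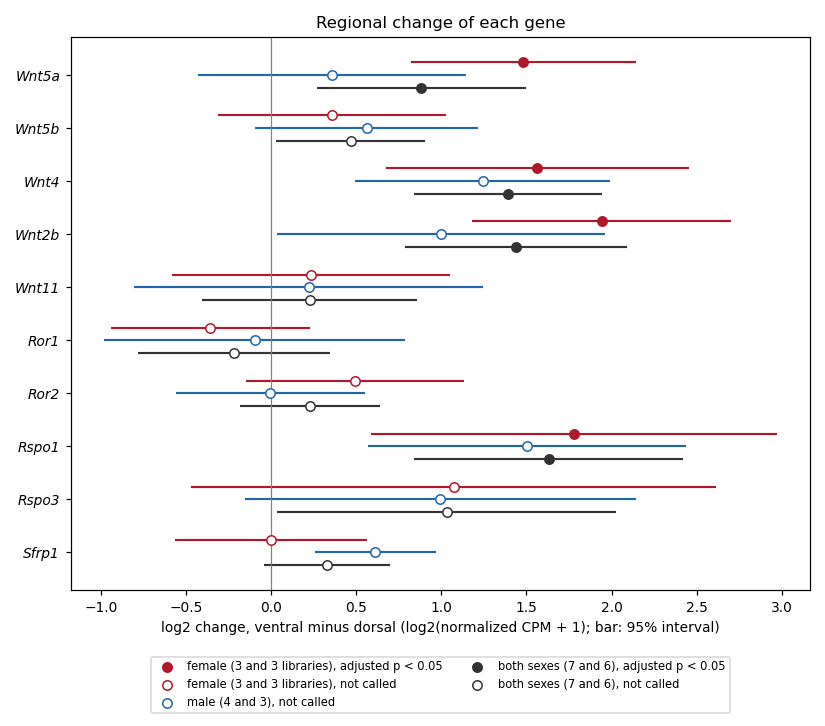
Log2 change from dorsal to ventral of each gene with its 95% interval, in female hearts, male hearts and both sexes with sex in the model; filled points have a limma adjusted p under 0.05. Wnt5a, Wnt4, Wnt2b and Rspo1 are filled in the female and the combined comparison, and no male point is filled.

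In male hearts none of the 10 genes was called (limma), and neither was any other gene: 0% of 14917, with 2083 genes at an unadjusted p under 0.05, and 0 genes called by edgeR. Unadjusted, 4 of the 10 were under 0.05 (Wnt4, Wnt2b, Rspo1 and Sfrp1), all higher ventrally, and the median change was 0.59 beside 0.03 over all genes. Every ventral male library was above every dorsal one for 4 of the 10 (Wnt5b, Wnt4, Rspo1 and Sfrp1), which held for 6.18% of all genes. Over both sexes, with sex in the model, 4 of the 10 genes were called higher ventrally and 0 lower, beside 18.9% of 15772 genes called and 9.80% called higher ventrally. These were Rspo1 (log2 change 1.63, limma adjusted p = 0.012), Wnt2b (1.44, adjusted p = 0.00954), Wnt4 (1.39, adjusted p = 0.00701) and Wnt5a (0.88, adjusted p = 0.045). The Wnt5a call was lost in 13 of 26 alternatives, among them the fits that left out each of 9 of the libraries, with adjusted p from 0.0527 to 0.108. Without female dorsal replicate 1, Rspo3 was called (1.41, limma adjusted p = 0.0315) and Wnt5a was not (0.0952). Without female ventral replicate 1, Sfrp1 was called (0.47, limma adjusted p = 0.0429) and Wnt5a was not (0.0527). The comparison over both sexes shares its libraries with the female and the male ones and is no separate evidence.

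Within numbers, each of which names a dorsal and a ventral library of one sex, Wnt4 was higher ventrally in 6 of 6 pairs, by 1.92 to 10.04 times. Rspo1 was higher ventrally in 6 of 6 pairs (1.69 to 7.48 times), as were Wnt2b (1.04 to 10.4 times) and Wnt5b (1.05 to 2.19 times). For Wnt2b the smallest ratio was in male pair 6, where Wnt5a was 0.966 times its dorsal level. Ror1 was higher ventrally in 2 of 6 pairs, Wnt11 in 4, and Wnt5a, Rspo3, Ror2 and Sfrp1 in 5. The share of all genes that were higher ventrally in every pair was not counted, so these counts only describe the 10 genes. The summed epicardium markers were higher ventrally by 4.27 to 5.60 times in the female pairs and by 0.959 to 1.39 times in the male ones, and the summed fibroblast markers by 2.55 to 6.91 and 1.17 to 2.02 times. In male pair 4 the epicardium sum was 1.39 times its dorsal level, with Wnt4 at 4.585, Wnt2b at 4.24, Rspo1 at 2.97 and Wnt5a at 1.69 times. In male pair 5 these were 0.959, 1.92, 2.34, 1.72 and 1.175 times. For male pair 6 they were 1.29, 2.41, 1.04, 3.06 and 0.966 times. The part of tissue make-up in these ratios was not tested.

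**Figure D3:**
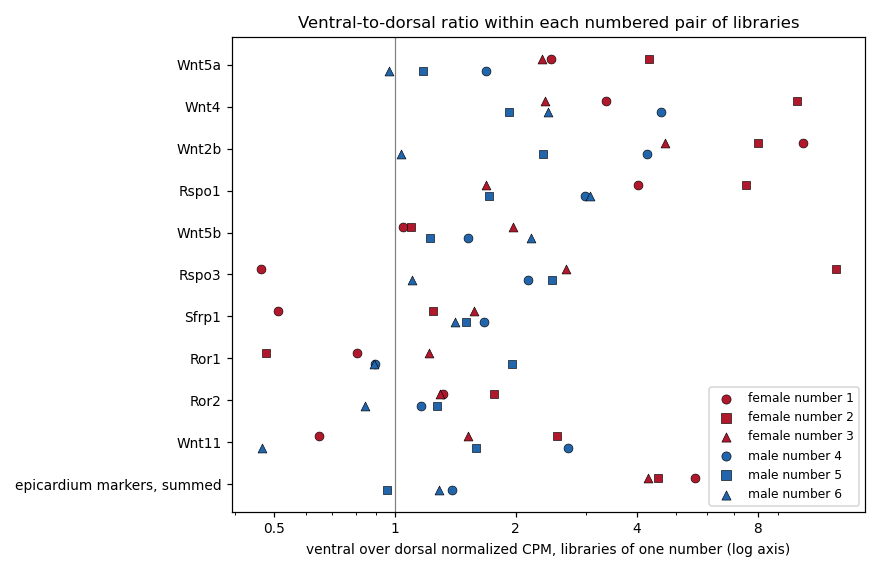
Ventral over dorsal normalized CPM (log axis) within each numbered pair of libraries, 3 female and 3 male pairs, for the 10 genes and the summed epicardium markers. Points right of 1 are higher ventrally; all 6 points of Wnt4, Rspo1, Wnt2b and Wnt5b are, and the epicardium sum lies above 4 in the female pairs and near 1 in the male ones.

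The ventrally higher genes thus moved beside the epicardium markers in female hearts. With the mean log2 level of the 10 epicardium markers as a covariate, none of the 10 genes was called in female hearts, and 21 genes were called in all. In that fit Wnt5a (-0.41), Rspo1 (-1.34) and Wnt5b (-0.84) had changes below 0, and Wnt4 (1.004, limma adjusted p = 0.876) and Wnt2b (0.80, adjusted p = 0.878) remained above 0. The markers and the side go together in these 6 libraries, so their parts cannot be told apart there. Over both sexes the same covariate left 0 genes called, with log2 changes of 1.14 for Wnt4, 0.71 for Rspo1, 0.68 for Wnt2b and 0.01 for Wnt5a. The 5 macrophage and 5 fibroblast markers that were higher ventrally in female hearts moved the same way as these genes, and their part was not tested.

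Per 1000 normalized CPM of summed epicardium markers, Rspo1 stood at 7.54 to 8.46 in male ventral and 3.17 to 4.51 in male dorsal libraries, which did not overlap. For Wnt4 and Wnt2b the sides overlapped on this scale, at 1.11 to 3.56 against 0.593 to 1.78 for Wnt4 and 1.66 to 4.43 against 1.02 to 2.05 for Wnt2b in male libraries, and also in female ones. The female ranges of Rspo1 were 14.2 to 20.7 ventrally and 9.94 to 52.5 dorsally and did overlap. Wnt5a per 1000 was 7.0 to 17.2 in male ventral and 9.65 to 14 in male dorsal libraries, and 17.3 to 21.1 in female ventral and 21.4 to 39.5 in female dorsal ones. On this scale every female ventral value of Wnt5a was below every female dorsal one, as also held for Wnt5b, Wnt11, Ror1, Ror2 and Sfrp1. The marker sum itself was 4.27 to 5.60 times higher ventrally in the female pairs, so any gene that changed less is lowered ventrally on this scale. The share of all genes whose sides did not overlap on it was not counted in either sex, so these ranges only describe the genes.

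**Figure D4:**
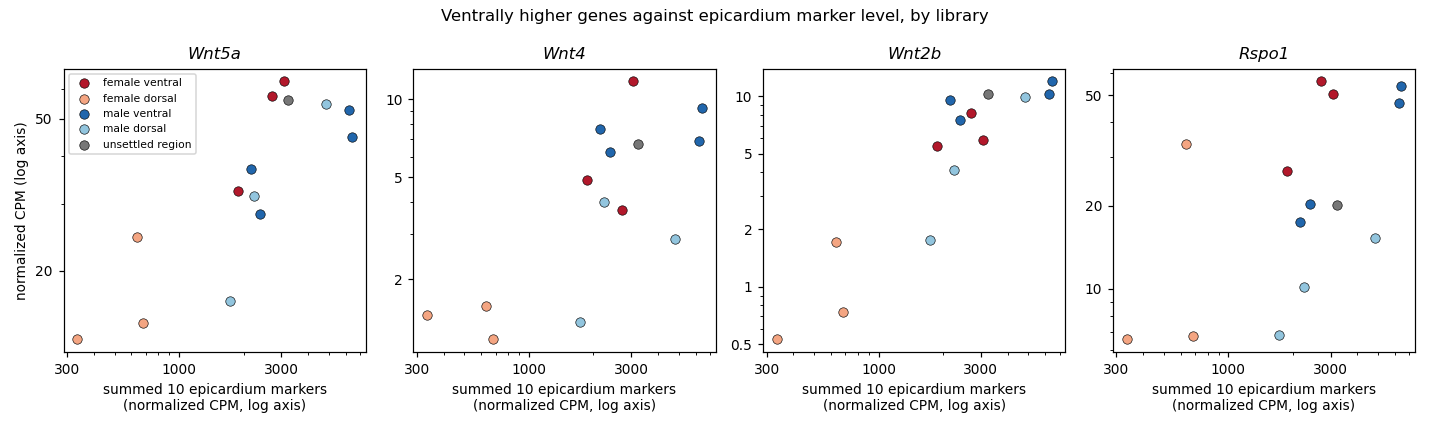
Normalized CPM of Wnt5a, Wnt4, Wnt2b and Rspo1 against the summed level of the 10 epicardium markers in each library (both log axes), colored by group. Female dorsal libraries, at 335 to 682 on the horizontal axis, stand apart from all others; at 1730 and above, the male dorsal points of Rspo1 lie below the male ventral ones.

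Levels can be set against each other per kilobase of exon. Sfrp1 came first, with a median of 38.5 normalized CPM per kb over the 13 libraries of settled side, above Rspo1 (10.5) in 13 of 13 libraries. Ror1 (5.56) and Wnt5a (4.14) followed, and Ror1 was above Wnt5a in 9 of 13. Rspo3 (3.49), Wnt5b (3.06) and Ror2 (2.49) were next; Rspo3 was above Wnt5b in 6 of 13 libraries, so these neighbors have no settled order. Wnt2b (1.403), Wnt4 (0.953) and Wnt11 (0.587) were the lowest. By group mean the order within female dorsal libraries differed, with 0.411 normalized CPM per kb for Wnt11, 0.334 for Wnt4 and 0.237 for Wnt2b. The place of Wnt11 above Wnt4 there rested on replicate 1, the library with the high atrial marker sum (3.025 against 1.455 normalized CPM). In replicates 2 and 3 Wnt4 (1.17 and 1.57) was above Wnt11 (0.898 and 1.17), on exons of similar length (4.194 and 4.137 kb). Wnt2b varied most among libraries, with a highest value 22.5 times its lowest, and Ror2 least, at 2.52 times.

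Among the other genes of the pathway, 70 of 91 were listed, and in female hearts 15 of 62 tested rose ventrally and 3 fell (limma, adjusted p under 0.05); the median log2 change over the 62 was 0.46. The share called, 29.0%, was near the 27.8% of all genes called. The share that rose ventrally was 24.2%, beside 14.5% of all genes. Whether the lists differ from all genes was not tested, so these counts only describe the lists. Of 15 receptors tested, 5 rose. Ryk, a receptor for Wnt5a, had 55.6, 81.0 and 74.3 normalized CPM in female ventral and 24.4, 18.5 and 22.1 in female dorsal libraries (log2 change 1.65, limma adjusted p = 6.67e-04). The groups lay far apart. Fzd5 rose by 1.32 and Ptk7, a co-receptor in cell polarity, by 1.10 on the log2 scale. Of the β-catenin core, 6 of 12 genes were called higher ventrally, among them Apc (1.16) and Axin1 (1.08), scaffolds of the complex that degrades β-catenin, and Tcf7l1 (1.09), a transcription factor at its target genes. The direct target list had 1 of 8 called higher ventrally, Apcdd1 (1.56), itself a Wnt inhibitor at the cell surface, and 1 higher dorsally, Myc (-0.77). Of 7 antagonists tested, Kremen1 was higher ventrally (0.90) and Dkk2 dorsally (-1.44). Dkk2 was close to the limit of detection ventrally, at 0.365 ± 0.417 normalized CPM (SD, n = 3). Gpc3, a glypican that binds Wnts at the surface, rose from 319.7 dorsally to 801.8 normalized CPM ventrally (1.28). Of the Dishevelled and polarity genes Dvl1 was higher ventrally (1.17) and Dvl3 dorsally (-0.78). The other Wnt ligands (2 tested) and the other R-spondin tested had 0 calls. The female calls named here were all lost with the epicardium markers as covariate, among them Ryk (1.34, limma adjusted p = 0.583) and Gpc3 (0.32, adjusted p = 0.943). That of Kremen1 was also lost with the replicate block and removal of GC and length trends (0.60, limma adjusted p = 0.056). That of Dkk2 was lost in 6 of 13 alternatives, among them edgeR (adjusted p = 0.0629) and the removal of GC and length trends (limma adjusted p = 0.0678). Those of Apcdd1 and Dvl1 were lost in 5 of 17 each and that of Fzd5 in 5 of 16, 4, 4 and 3 of which left out a library (Apcdd1 without female ventral 2 or 3 or dorsal 2 or 3, Dvl1 without ventral 1 or 2 or dorsal 1 or 2, Fzd5 without ventral 2 or 3 or dorsal 1); Dkk2 was also lost without ventral 1 or 3.

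In male hearts 0 of 65 genes of these lists were called (limma), with a median log2 change of 0.11. Over both sexes 8 of 69 were higher ventrally (11.6%, beside 9.80% of all genes) and 2 higher dorsally, which made 14.5% called beside 18.9% of all genes. Those that rose included Fzd5 (1.23), Ryk (1.06), Fzd2 (0.70), Pygo2 (0.91), a nuclear partner of β-catenin, Tcf7l1 (0.89), Axin1 (0.68) and Kremen1 (0.49). Those higher dorsally were Csnk1a1 (-0.31), a kinase that marks β-catenin for degradation, and Tnfrsf19 (-0.84). Blocking on replicate number lost the calls of Axin1 (limma adjusted p = 0.0557), Kremen1 (0.0917) and Csnk1a1 (0.0826). Leaving out each of the 13 libraries in turn lost the call of Kremen1 in 10 fits, of Axin1 and Tnfrsf19 in 8 each, and of Pygo2, Fzd5 and Csnk1a1 in 7 each, and of Ryk, Fzd2 and Tcf7l1 in 0. Between the sexes 1 of the 10 genes (Sfrp1) was called, beside 10.9% of 15772 genes called and 6.54% called higher in females. Of the lists, 3 of 69 genes were lower in males and 0 higher. They were named after their values were seen: Ctnnb1, β-catenin itself (160.8 ± 25.6 in 7 male and 263 ± 51.5 in 6 female libraries, log2 change -0.72, limma adjusted p = 8.62e-04), Gsk3b, its kinase (-0.52), and Lgr4, an R-spondin receptor (-0.84). The Lgr4 call was lost without female ventral replicate 2 (limma adjusted p = 0.0578), without replicate 3 (0.0541) and with the libraries of each number averaged (0.146).

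**Figure D5:**
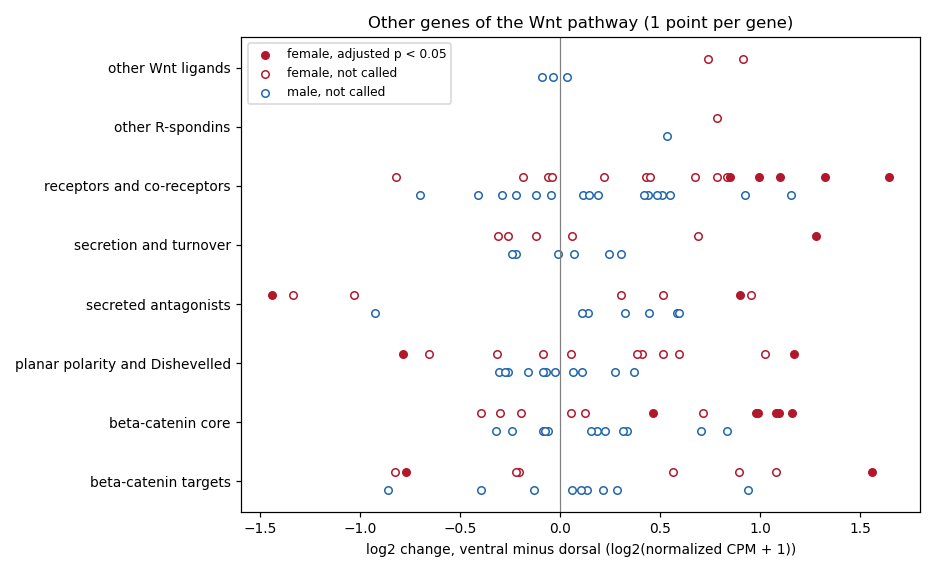
Log2 change from dorsal to ventral of the other pathway genes, by list, in female and male hearts; each point is a gene, and filled points have a limma adjusted p under 0.05. Female receptors and β-catenin core genes have 5 and 6 filled points to the right of 0, and no male gene is filled.

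In the test of whether the regional change differed between the sexes, 0 of the 10 genes were called by limma (1 had an unadjusted p under 0.05), beside 2.73% of 15772 genes; edgeR also called 0. The differences, male minus female, were -0.32 for Wnt4 (interval -1.45 to 0.80), -0.94 for Wnt2b (-2.19 to 0.30), -0.27 for Rspo1 (-1.90 to 1.35) and 0.61 for Sfrp1 (-0.06 to 1.29). These intervals are wide, and similar changes in the sexes were not shown. Of the 69 other pathway genes 1 was called, Ryk, with a change smaller in males by 1.10 log2 units (limma adjusted p = 0.0406). The call was lost in 13 of 25 alternatives, the replicate block among them (adjusted p = 0.0655).

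For each gene called between the sides, the 3 genes with the most similar profile were taken by Pearson's r of log2(normalized CPM + 1) over the 13 libraries, among 15771 genes. They were Tpbgl (0.969), Flrt1 (0.957) and Ogn (0.957) for Wnt5a. For Wnt4 they were Ehd1 (0.974), Nlgn2 (0.954) and Rab11fip1 (0.928). Gstm1 (0.964), Rab38 (0.957) and Tyrobp (0.955) were nearest to Wnt2b, and Basp1 (0.971), Acin1 (0.969) and Gabrb1 (0.952) to Rspo1. The 12 names are all different, and these libraries share side, sex and tissue make-up, so the values describe these samples only.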

How the data were processed

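RNA-seq of dissected epicardium and subepicardium was analysed in 14 libraries. Per the study's methods, the authors trimmed reads with Cutadapt, dropped reads under 30 bases, quantified genes with RSEM (1.3.1 in the submitters' processing notes) on GRCm38 transcripts and normalized with limma. The deposited signal is a normalized CPM; whole reads were recovered for 100.0% of values (tolerance 0.02 reads) with an offset of 0.5. Counting by strand is not given in the sources used here. Positions and lengths are from GENCODE M21, in which 15877 (99.9%) of the 15894 identifiers occur.

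Groups followed the labels. Differences were tested with limma 3.58.1, R 4.3.3 (lmFit, then trended eBayes, two-sided) on log2(normalized CPM + 1), over genes reaching 1 in 3 or more of the libraries fitted; the pseudocount understates changes of low genes. P-values were Benjamini-Hochberg adjusted over all genes and called under 0.05. The 5 comparisons were side in females, in males and in both sexes (sex as covariate), sex (side as covariate), and the difference of the regional change in a 4-group fit. Named were all 10 genes, up to 3 called genes per direction and pathway list in each regional comparison, and the 3 most similar profiles; other names are marked. The genes and lists were chosen with earlier results of these data known. Of the marker lists, Bmp10 was not listed and Ccl21a, a symbol on 2 identifiers, was left out.

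The alternatives changed the pseudocount (to 0.1), the filter (none, or a mean of at least 10), the scaling (quantile normalization, or median of ratios) or the variance trend (none), or used an edgeR 4.0.16 quasi-likelihood test on recovered reads, removal of GC and length trends (natural splines, 5 degrees of freedom), each library left out, the replicate block with and without that removal, epicardium markers as covariate, and the unsettled library as dorsal or ventral. Same-numbered libraries had correlated deviations (over 15772 genes 0.187, 0.169 and 0.270 in the female pairs and 0.427, 0.175 and 0.351 in the male pairs). Each value was above the highest correlation outside its pair, by little in male pair 6 (0.351 against 0.295). The numbers were therefore taken to pair libraries, although what a number marks is not stated in the labels or methods. The fitting code was tested on simulated data. Promoter sequences are from RefSeq (GRCm38.p6).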

Additional observations from a re-analysis of the deposited data

Results flagged for a closer look

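The regional change of Ryk differed between the sexes in the 4-group limma fit. Ryk measured 55.6, 81.0 and 74.3 normalized CPM in female ventral, 24.4, 18.5 and 22.1 in female dorsal, 38.03, 28.2, 39.5 and 33.2 in male ventral and 21.2, 27.6 and 21.4 in male dorsal libraries. Every ventral library was above every dorsal one in each sex, and the male change was smaller by 1.10 log2 units (male minus female -1.10, interval -1.67 to -0.53, limma adjusted p = 0.0406). The call was lost in 13 of 25 alternatives, among them the replicate block (-1.08, limma adjusted p = 0.0655) and leaving out female ventral replicate 2 (-0.99, adjusted p = 0.127). The sexes carry separate runs of numbers, and sex and preparation cannot be told apart. For the same difference, male minus female, 0 of 10 epicardium markers were above 0 (median log2 difference -1.63) and 0 were called. The part of these markers in the Ryk difference was not tested.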

How the results depend on the processing

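The limits are the few libraries per group, pools of 2 hearts, and a marker level that goes with the side in female hearts. Of the 10 genes, 4 were called in female hearts and 4 over both sexes; with a mean of at least 10 these counts were 2 and 2, the low genes Wnt4 and Wnt2b then not being tested, and with the epicardium markers as covariate 0 and 0, with 21 and 0 genes called in all. Leaving out each library in turn gave 2 to 4 of the 10 genes in female hearts (2 on leaving out female ventral replicate 2, and 2 on leaving out female dorsal replicate 2), 3 to 4 over both sexes, 1 to 2 between the sexes, and 0 to 0 in male hearts and in the difference between the sexes. The counts of all genes ranged from 2158 to 3845 (4007 with all libraries) in female hearts, 0 to 12 in male hearts, 1429 to 3646 (2974) over both sexes, 1303 to 1859 (1726) between the sexes and 260 to 447 (431) for the difference. The lowest counts in female hearts and over both sexes came without female ventral replicate 2 (2158 and 1557), female dorsal replicate 2 (2291 and 1429) and, over both sexes, female ventral replicate 3 (1739); for the difference they were 267 without female ventral replicate 2 and 260 without female dorsal replicate 2.

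In male hearts 1 gene was called without the variance trend, 1 with GC and length trends removed, 76 with the replicate block, 1 of the 10 (Rspo1) among them, and 27 with the block and the removal together, 0 of the 10 among them. The block with the removal gave 1806 genes over both sexes, and the replicate block by averaging gave 1053 between the sexes. For the difference of the regional change the replicate block gave 804 genes, 1 of the 10 (Wnt5a) among them, and 769 with the removal, 0 of the 10 among them. The block changed no other call of the 10 genes; the calls of other genes it changed are given beside them. With the library of unsettled side as dorsal or as ventral, 2 of the 10 were called between the sexes, as they were without male ventral replicate 4 or male dorsal replicate 4: Sfrp1 and Wnt2b, which was higher in males (log2 change 0.97, limma adjusted p = 0.0558 with all 13 libraries, 0.0315 to 0.0436 in these 4 fits).

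Directions turned mostly for genes near 0. In female hearts Wnt11 was -0.016 under quantile normalization and Sfrp1 -0.016 in edgeR; with the epicardium covariate Wnt5a was -0.41, Wnt5b -0.84, Ror1 0.29, Rspo1 -1.34, Sfrp1 -0.046 and Fzd5 -0.24. In male hearts Ror2 was 0.02 with the median of ratios, 0.016 in edgeR, 0.10 with the replicate block, 0.079 with the epicardium covariate and 0.013 with the unsettled library as dorsal, Ror1 was 0.20 with the block and 0.24 with the block and the removal, and Wnt11 was -0.068 with the covariate (-0.04 over both sexes). The Rspo1 difference between the sexes was 0.17 in edgeR. Leaving out each library in turn gave -0.17 to 0.26 for Sfrp1 in female hearts, -0.10 to 0.10 for Ror2, -0.36 to 0.25 for Ror1, -0.28 to 0.75 for Wnt11 and -0.063 to 0.76 for Wnt5a (below 0 without male dorsal replicate 4) in male hearts, and -0.006 to 0.48 for Wnt11 over both sexes. Between the sexes it gave -0.22 to 0.009 for Ror2 and -0.47 to 0.21 for Rspo3, and for the difference -0.99 to 0.094 for Rspo1 and -0.62 to 0.10 for Wnt4. The causes of these changes were not tested.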

Other observations

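The male library numbered 7 whose labels disagree on its side had 56.1 normalized CPM of Wnt5a, 6.70 of Wnt4, 10.3 of Wnt2b and 20.1 of Rspo1. It had 10.3 of Rspo3, 4.04 of Wnt5b, 5.54 of Wnt11, 28.2 of Ror1, 10.4 of Ror2 and 117 of Sfrp1. Its summed epicardium markers came to 3224 normalized CPM. Its Wnt5b value was the lowest of all 14 libraries.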
